A study of Homo sapiens with 6 samples.

Results

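Cholesterol and fatty acid synthesis and export was followed through 32 genes in the human breast cancer line MDA-MB-231 and in S1a and S1b, which are isolated from it. The genes were taken by symbol, and the list was chosen with earlier results of these data known. They comprise 18 enzymes of sterol synthesis, 4 genes that control it, 9 enzymes that make, desaturate or activate fatty acids, and the cholesterol exporter ABCA1. Of the 32, 28 had at least 1 probe set that the array annotation gives to that gene alone, among 11963 genes named in that way, and these 28 had 54 such probe sets. CYP51A1 and FADS1 had probe sets annotated to more than 1 gene only, and FDFT1 and ACSL3 had none annotated, so these 4 were not analysed here. All 28 passed the filter on low signals, a mean of at least 44 array units, which 7791 genes passed in all. MVD passed it only through the isolates, as its parental mean lay below 44 units.

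MDA-MB-231 is a triple-negative line with mesenchymal traits. The 3 groups were the parental line, S1a and S1b, with 2 arrays each, and S1a and S1b are labelled as the first and the second isolated population of seeder cells, that is, tumour cells that can leave a tumour and return to one. All groups were grown subconfluent in DMEM with 10% FBS, and no group received a drug or carried a transgene by the labels. Each isolate is 1 population, and the labels name no isolated population that lacks the seeder trait. The arrays are called biological replicates without separate cultures being named, so a p-value here speaks to the spread of 2 arrays a group, which may be technical.

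Cells build cholesterol from acetyl-CoA through mevalonate and isoprenoid units to squalene, which is closed into lanosterol and then trimmed, shifted and reduced to cholesterol. When membranes of the endoplasmic reticulum run low in sterol, SCAP escorts the SREBP proteins, encoded by SREBF1 and SREBF2, to the Golgi, where they are cut into transcription factors that switch on these enzymes. INSIG1 holds the complex back when sterol is plentiful. SREBF1 is best known for driving fatty acid genes, and ABCA1 hands cholesterol to apolipoprotein A-I and is induced through the oxysterol receptors of the LXR family. Serum supplies cholesterol in lipoproteins, so cultured cells meet their need both by uptake and by synthesis.

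The arrays shared 1 trimmed mean signal, and their medians ran from 86.6 to 106 units. Of the markers listed for MDA-MB-231, all 5 high ones (VIM, CD44, AXL, MSN and CAV1) were above the filter in every group, with summed signals of 46888 to 59601 units. Of these 5, only CAV1 had an adjusted p below 0.05 with both isolates averaged (log2 change -0.30, limma adjusted p = 0.00945). In S1a, CD44 was lower as well (-0.25, limma adjusted p = 0.0353). The 4 low ones (ESR1, PGR, CDH1 and ERBB3) summed to between 75.4 and 143 units. ESR1 means lay above 44 units in the parental line (54.8) and S1b (52.8), and ERBB3 means in S1a (64.2) and S1b (52.4). The 4 named leukocyte markers summed to between 141 and 199.8 units in the parental line, 94.0 and 151 in S1a and 62.6 and 66.0 in S1b. The defining marker PTPRC was below 44 units on every array. CD14 of the same list gave 70.5 and 103 units in the parental line, 43.9 and 69.8 in S1a, and 26.4 and 26.0 in S1b. With both isolates averaged, CD14 fell with a log2 change of -1.08 (limma adjusted p = 0.0356). The 4 endothelial markers summed to between 62.4 and 65.5 units in the parental line, 114 and 128 in S1a and 69.4 and 74.7 in S1b. In S1a the means of 2 of them, PECAM1 and CDH5, lay above 44 units, while VWF stayed between 3.12 and 7.83 units on all arrays. The 4 adipocyte markers summed to between 109.8 and 143 units in the parental line, 31.4 and 80.4 in S1a and 78.1 and 112 in S1b, with CFD between 11.3 and 88.9 units and ADIPOQ between 9.93 and 31.0. The part of these markers in the results was not tested. The added poly-A spikes averaged 7.12 and 7.75 (log2 signal) in the parental line and 7.61 to 8.08 in the isolates. GAPDH, measured at both ends of its transcript, had a 3′/5′ signal ratio of 1.06 and 1.09 in the parental line and of 0.976 to 0.998 in the isolates. The part of these 2 measures was not tested either. The arrays measure bulk RNA, so fewer cells expressing a gene and less of its RNA per cell cannot be told apart.

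Neither sterol nor fatty acid enzymes moved as a block. With both isolates averaged and set against parental, the early enzymes ACAT2 and MVD and the regulator INSIG1 rose, the late sterol enzymes NSDHL, EBP, SC5D and DHCR7, the desaturase SCD and the exporter ABCA1 fell, and 19 of the 28 genes had no call. Of the 28, 9 passed the threshold (3 higher, 6 lower; limma, Benjamini-Hochberg over 7791 genes, adjusted p below 0.05), which is named a call from here on. That is 32.1%, below the 46.2% of all genes tested that passed in the same comparison. Changes are differences of log2(signal + 3.942), a scale that understates the change of dim genes. The median change of the 28 genes was -0.032, beside -0.026 over all genes tested. In the sterol enzymes 2 rose and 4 fell of 16 tested (median -0.0061), and in the fatty acid enzymes none rose and 1 fell of 7 (median -0.12). For the 19 genes without a call, the values lay between -0.26 and 0.27, and their 95% intervals reached from -1.03 to 0.65.

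In S1a against parental 9 of 28 passed, 4 higher and 5 lower, where 39.2% of all genes passed, 19.4% higher and 19.9% lower. In S1b 11 of 28 passed, 3 higher and 8 lower, where 41.6% of all genes passed, 20.7% higher and 20.9% lower. Both comparisons use the same 2 parental arrays. The balance of directions depended on the scaling: with the arrays set to equal medians (median centring), 6 genes were called higher and 4 lower with both isolates averaged (all genes 34.6% and 14%), 9 higher and 3 lower in S1a (30% and 11.2%), and 4 higher and 7 lower in S1b (31.4% and 12.7%). The sterol enzymes then split into 3 higher and 3 lower, and the 1 fatty acid enzyme called was higher. The direct comparison of S1b with S1a called 4 of 28, or 14.3%, all lower in S1b, where 1.89% of all genes were called and 1.42% were called lower. These were SREBF1, SCD, SCD5 and ABCA1, and none of the 16 sterol enzymes.

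**Figure D1:**
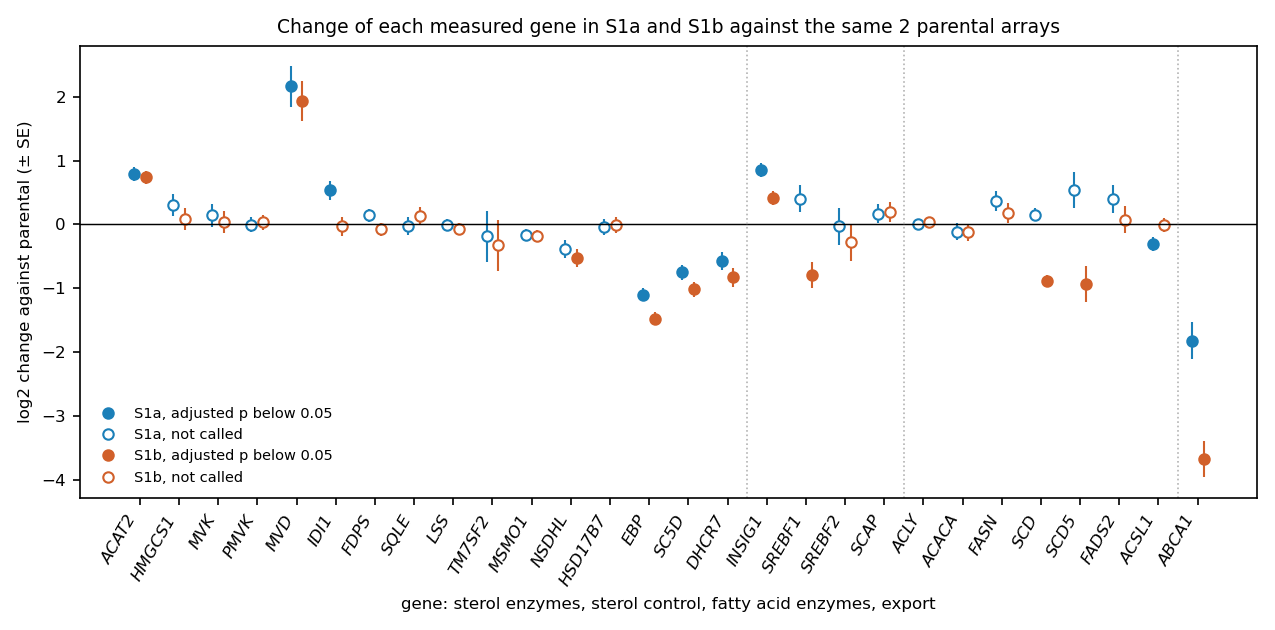
Log2 change (± SE, limma) of the 28 measured genes in S1a and S1b against the parental arrays, with dotted lines between sterol enzymes, sterol control, fatty acid enzymes and export; filled points passed an adjusted p of 0.05. MVD stands highest and ABCA1 lowest, EBP, SC5D and DHCR7 lie below 0 in both isolates, and SREBF1, SCD and SCD5 are below 0 in S1b but above it in S1a.

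The 250 bases before the RefSeq start site are shown for 6 genes with a call: MVD and INSIG1 of those that rose, NSDHL and EBP of the late enzymes that fell, SCD of those that differed between the isolates, and ABCA1 of the fall in both. Sequences are RefSeq's on GRCh38.p14, 5′ to 3′, and capitals mark the CCAAT box (CCAAT, the site of NF-Y, a partner of SREBP at sterol genes) and the E-box (CACGTG) on either strand.
MVD (chr16:88663092-88663341, minus strand): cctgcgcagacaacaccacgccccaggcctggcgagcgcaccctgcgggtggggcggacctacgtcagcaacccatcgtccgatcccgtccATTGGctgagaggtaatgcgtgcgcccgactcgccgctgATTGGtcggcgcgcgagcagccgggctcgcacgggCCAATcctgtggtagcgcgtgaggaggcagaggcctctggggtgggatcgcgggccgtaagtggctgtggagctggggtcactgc
INSIG1 (chr7:155297628-155297877, plus strand): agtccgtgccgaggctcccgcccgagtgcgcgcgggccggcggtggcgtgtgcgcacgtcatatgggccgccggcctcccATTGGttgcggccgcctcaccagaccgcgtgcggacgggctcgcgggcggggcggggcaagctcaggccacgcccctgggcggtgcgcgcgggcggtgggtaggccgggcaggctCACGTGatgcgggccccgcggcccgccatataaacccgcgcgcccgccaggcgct
NSDHL (chrX:152830813-152831062, plus strand): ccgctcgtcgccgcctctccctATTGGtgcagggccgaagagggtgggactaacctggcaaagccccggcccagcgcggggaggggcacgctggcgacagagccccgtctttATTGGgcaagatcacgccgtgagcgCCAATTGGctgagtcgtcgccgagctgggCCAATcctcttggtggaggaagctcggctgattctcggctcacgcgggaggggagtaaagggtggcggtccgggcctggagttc
EBP (chrX:48521558-48521807, plus strand): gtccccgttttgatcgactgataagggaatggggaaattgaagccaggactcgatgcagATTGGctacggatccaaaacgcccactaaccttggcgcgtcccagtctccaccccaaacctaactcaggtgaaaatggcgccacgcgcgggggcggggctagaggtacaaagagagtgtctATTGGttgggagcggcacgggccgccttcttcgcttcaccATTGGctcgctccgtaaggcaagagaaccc
SCD (chr10:100346983-100347232, plus strand): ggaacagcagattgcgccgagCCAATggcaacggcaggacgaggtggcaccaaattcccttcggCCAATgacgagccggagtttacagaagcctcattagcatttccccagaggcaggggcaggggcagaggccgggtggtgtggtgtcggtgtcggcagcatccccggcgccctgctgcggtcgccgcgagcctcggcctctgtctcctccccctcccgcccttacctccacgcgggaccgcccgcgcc
ABCA1 (chr9:104928156-104928405, minus strand): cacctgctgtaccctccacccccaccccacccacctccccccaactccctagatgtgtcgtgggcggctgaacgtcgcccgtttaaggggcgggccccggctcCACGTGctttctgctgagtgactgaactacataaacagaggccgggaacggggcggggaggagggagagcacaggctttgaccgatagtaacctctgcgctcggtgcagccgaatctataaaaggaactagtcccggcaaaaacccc

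RefSeq's promoter table held 28 of the 32 genes, which are not the same 28 as those measured, and no window was searched for ACAT2, FDFT1, SQLE and FASN. On either strand, a CCAAT box lay in 18 of the 28 windows, or 64.3%, beside 33% of the 27305 promoters of the same length. NSDHL, whose RNA fell, had 5 matches, MVD, whose RNA rose, had 3, and ABCA1 had none. A GC box (GGGCGG, the site of SP1) lay in 26 of 28 windows, or 92.9%, beside 42.3% of all promoters. An E-box lay in 4 of 28 (14.3%, beside 6.49%), INSIG1 and ABCA1 among them. The letters TCACNCCAC, a form of the sterol regulatory element that SREBP binds, lay in 1 of 28, in the window of SREBF2, 133 bases before the start, beside 0.875% of all promoters. The direct repeat of AGGTCA spaced by 4 bases, a form of the LXR element, lay in none of the 28 and in 0.0146% of all promoters. A CCAAT match and its reverse complement overlap in NSDHL, and GC boxes overlap one another in some windows. The promoters set beside the 28 were alike in length only and were not matched for gene type or base composition. These are matches of exact letters only. A site that differs from a searched pattern at any fixed base was not counted, so a window without a match may still hold one. The ABCA1 window holds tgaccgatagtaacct, which on the other strand comes close to the LXR pattern without matching it.

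Of the 9 enzymes tested that lead to lanosterol, ACAT2 and MVD were called higher with both isolates averaged and in each isolate, and the other 7 had no call in that average. This count of 2 of 9 is near the 22.7% of all genes called higher. ACAT2, the thiolase that joins acetyl-CoA units at the entry to the pathway, gave 1927 and 2408 units in the parental line, 3777 and 3688 in S1a, and 3744 and 3444 in S1b. All 4 isolate arrays lay above both parental arrays, and ACAT2 rose by 0.76 ± 0.094 (log2 change and its SE, limma adjusted p = 0.000135), or 1.69-fold. MVD, which decarboxylates mevalonate diphosphate to isopentenyl diphosphate, gave 23.8 and 30.3 units in the parental line, 152 and 118 in S1a, and 105 and 124 in S1b. All isolate arrays lay above both parental arrays, and S1a and S1b overlapped. Its parental mean of 27.0 ± 4.65 (SD, n = 2) lay below the filter of 44 units, so the rise is at least 3.07-fold in S1a and at least 2.60-fold in S1b (limma adjusted p = 0.000584 and 0.000932). MVD passed the filter only through the isolates, with a mean of 92.2 units over all arrays. With the filter at the 60th percentile it was not tested. Of 23 genes 8 were then called with both isolates averaged, 2 higher and 6 lower. Of all genes 29% were then called higher and 25.9% lower. ACAT2 and MVD had 1 probe set each, both with a suffix for probes that may match other transcripts.

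IDI1, the isomerase that balances the 2 isoprenoid building blocks, had a call in S1a and none in S1b. It gave 1398 and 2057 units in the parental line, 2509 and 2419.6 in S1a, and 1618 and 1703 in S1b. The parental arrays differed by more than S1b did from either, and the S1a arrays lay above all others. IDI1 rose in S1a by 0.54 ± 0.15 (limma adjusted p = 0.017) and stood at -0.031 ± 0.15 in S1b, and the difference between the isolates was -0.57 ± 0.15 with no call (adjusted p = 0.097; 0.00287 without parental replicate 1, 0.00306 without parental replicate 2 and 0.0236 with array weights). The S1a call ended without parental replicate 1 (value 0.26, adjusted p = 0.0519), S1a replicate 1 (0.0713) or S1a replicate 2 (0.0521), and without the variance trend (0.0915); without parental replicate 2 the value was 0.82. The average of both isolates, 0.25 (adjusted p = 0.134), was called higher with median centring (0.44), with the mean of probe sets (0.37) and without parental replicate 2 (0.53). The other IDI1 probe set, nearly as bright, gave 1219.8 and 1632 units in the parental line, 2291 and 2249 in S1a, and 1723 and 1710.1 in S1b, with all isolate arrays above both parental arrays. It rose by 0.48 with both isolates averaged (adjusted p = 0.00473 over all probe sets tested) and by 0.68 in S1a (0.00198), and stood at 0.28 in S1b (0.0998). Both IDI1 probe sets carry a suffix for probes that may match other transcripts.

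HMGCS1, which makes the HMG-CoA that feeds mevalonate, gave 165 and 189 units in the parental line, 223 and 215 in S1a, and 186 and 188 in S1b. The 95% interval of its log2 change, both isolates averaged, was -0.14 to 0.53. Its dimmer probe set had the opposite sign (-0.44, adjusted p = 0.161). The kinases MVK and PMVK had intervals of -0.25 to 0.43 and -0.21 to 0.24. MVK probe sets disagreed: the middle one gave 90.3 and 87.4 units in the parental line, 182 and 159 in S1a, and 173 and 150.4 in S1b. That is a rise of 0.87 (limma adjusted p = 0.004 over all probe sets tested), while the brightest gave 0.089. The dimmest stood at -0.10 (adjusted p = 0.77), with 0.53 in S1a (0.189) and -0.73 in S1b (0.0731). FDPS, which joins isoprenoid units to farnesyl diphosphate, had parental and isolate means of 3133 ± 271 (SD, n = 2) and 3212 ± 359 (SD, n = 4), with an interval of -0.17 to 0.24. SQLE, the epoxidase of squalene, and LSS, the cyclase that closes it to lanosterol, had intervals of -0.21 to 0.33 and -0.22 to 0.14. Dimmer probe sets stood lower: for SQLE -0.40 (adjusted p = 0.145) and -0.19 (0.68), and for LSS -0.63 (0.0757) and -0.12 (0.805), and the first of these LSS probe sets fell in S1b (-0.84, adjusted p = 0.0499 over all probe sets tested). Each of the intervals given for the brightest probe sets lies within a 2-fold change, which is 1 on the log2 scale.

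Past lanosterol, 4 of the 7 enzymes tested were called lower with both isolates averaged, where 23.5% of all genes were; whether early and late enzymes differ was not tested. EBP, the isomerase that shifts the ring double bond of the sterol, gave 1901 and 1828 units in the parental line, 933 and 805 in S1a, and 649 and 683 in S1b. The order was parental, S1a, S1b, and the groups did not overlap. EBP fell by 1.29 ± 0.088 on the log2 scale (limma adjusted p = 3.27e-06), a ratio of 2.15 in S1a and 2.80 in S1b. Its other probe sets gave -0.90 and -1.0, both called (adjusted p = 2.31e-05 and 0.000314 over all probe sets tested), and the S1b value moved from -1.48 to -0.95 when probe sets with shared-probe suffixes were dropped.

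SC5D, the desaturase that acts after EBP, gave 1553 and 1360.3 units in the parental line, 945 and 784 in S1a, and 676 and 757 in S1b. All isolate arrays lay below both parental arrays, and SC5D fell with a change of -0.89 ± 0.11 (limma adjusted p = 0.000102). The call ended with the mean of its probe sets (adjusted p = 0.0632; 0.0969 in S1a and 0.121 in S1b), where the second one averaged 7.77 units over the arrays. DHCR7, the reductase that completes cholesterol on one branch of the pathway, gave 592 and 509 units in the parental line, 385 and 350.0 in S1a, and 283 and 332 in S1b, again with no overlap. DHCR7 fell with a change of -0.70 ± 0.12 (limma adjusted p = 0.00116). The dimmer of its probe sets changed by -0.50 (adjusted p = 0.0123). With that probe set the isolates differed, at -0.11 in S1a (adjusted p = 0.632) and -0.89 in S1b (0.00126), a difference of -0.79 (adjusted p = 0.0397 over all probe sets tested), whereas the brighter one differed by -0.26 (0.446). The DHCR7 call in S1a ended with median centring (adjusted p = 0.0513) and without S1a replicate 2 (0.0739), and the mean of its probe sets moved it from -0.58 to -0.34.

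NSDHL, which removes a carboxyl group on the way from lanosterol, gave 395 and 443 units in the parental line, 332 and 309 in S1a, and 305 and 271 in S1b. The isolate arrays were all lower, and the change of -0.46 ± 0.12 passed (limma adjusted p = 0.0116). S1b passed by itself (-0.53, 0.0126) and S1a stood at -0.38 (0.0551). The call with both isolates averaged ended with median centring (-0.27, adjusted p = 0.129), with shared-probe suffixes dropped (-0.23, 0.168) and without parental replicate 2 (0.0724), and the S1b call ended in the same 3 cases and without S1b replicate 2 (0.0851). MSMO1, the methyl oxidase that acts before NSDHL, and HSD17B7, the reductase after it, had no call, with intervals of -0.36 to 0.016 and -0.26 to 0.21. TM7SF2, a sterol reductase, was dim at 60.6 units in parental and 50.4 in the isolates, with a wide interval of -1.03 to 0.52.

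**Figure D2:**
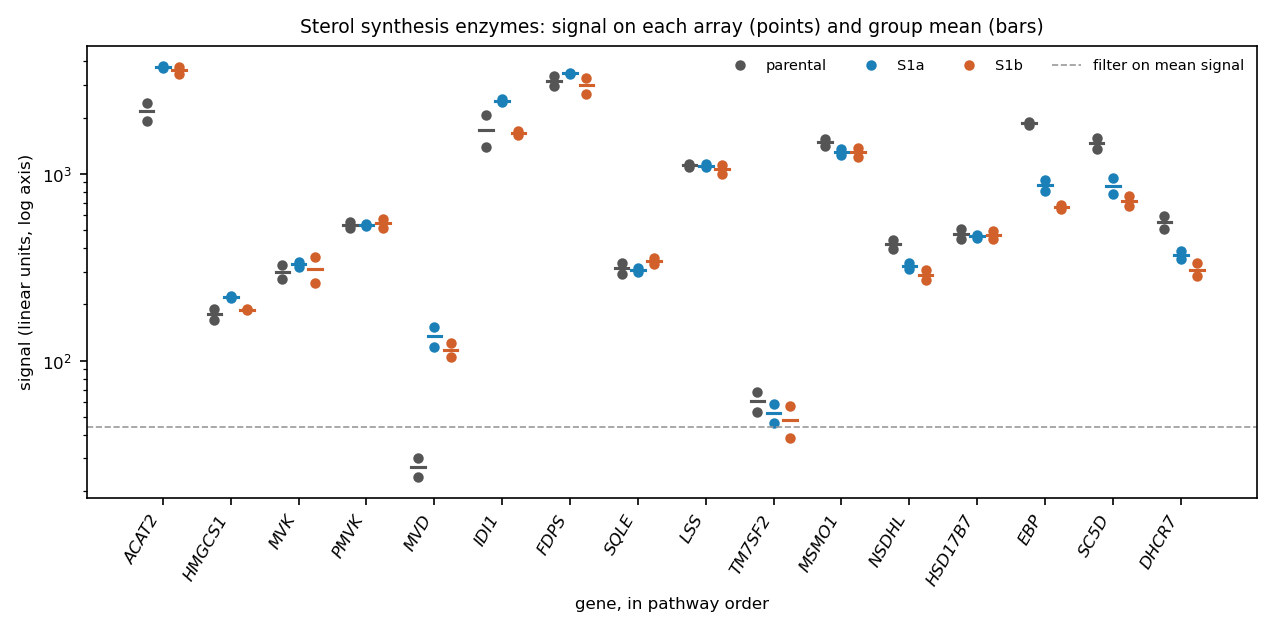
Signal of the 16 measured sterol synthesis enzymes in pathway order on a log axis, with a point for each array, a bar at each group mean and a dashed line at the filter of 44 units. The parental points of EBP, SC5D, DHCR7 and NSDHL lie above all isolate points, those of ACAT2 and MVD below them, and the points of LSS, PMVK and HSD17B7 overlap.

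Among the genes that control sterol synthesis, INSIG1 was higher in both isolates and SREBF1 was lower in S1b. INSIG1, the retention protein of the endoplasmic reticulum and itself an SREBP target, gave 971 and 784 units in the parental line, 1609 and 1546 in S1a, and 1144 and 1182 in S1b. The order was parental, S1b, S1a without overlap. INSIG1 rose by 0.85 ± 0.11 in S1a (limma adjusted p = 0.000286) and by 0.41 ± 0.11 in S1b (0.0138), and the isolates differed by -0.44 ± 0.11 with no call (adjusted p = 0.0858; 0.0171 without parental replicate 1, 0.0165 without parental replicate 2 and 0.028 with array weights). Its other probe sets gave 0.74 (adjusted p = 0.000382) and 0.34 (0.0872) with both isolates averaged. The S1b call ended without parental replicate 2 (value 0.26, adjusted p = 0.0682), S1b replicate 1 (0.0557) or S1b replicate 2 (0.0769) and without the variance trend (0.0636).

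SREBF1, which encodes the SREBP best known at fatty acid genes, gave 225 and 255 units in the parental line, 324 and 314 in S1a, and 168 and 111 in S1b. Both S1a arrays lay above parental and both S1b arrays below it. SREBF1 fell in S1b against parental with a change of -0.79 ± 0.21 (limma adjusted p = 0.0126), while S1a stood at 0.41 ± 0.21 without a call (adjusted p = 0.151). Against parental, the S1b call ended without S1b replicate 2 (-0.50, adjusted p = 0.093). SREBF2, which encodes the SREBP of sterol genes, had no call, and its 2 probe sets had opposite signs (-0.15, adjusted p = 0.637, and 0.50, adjusted p = 0.0882). SCAP, the escort of the SREBP proteins, gave 507 and 474 units in the parental line, 483 and 631 in S1a, and 614 and 514 in S1b, with an interval of -0.11 to 0.47; it was called higher with median centring (0.37, adjusted p = 0.0255).

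In the fatty acid arm, the enzymes that build palmitate had no call and the 2 stearoyl-CoA desaturases were low in S1b. ACLY, which makes cytosolic acetyl-CoA from citrate, gave 3824 and 3737 units in the parental line, 3721 and 3848 in S1a, and 3960.5 and 3836 in S1b, with an interval of -0.13 to 0.17. The dimmest ACLY probe set was higher in the isolates (0.37, limma adjusted p = 0.0173 over all probe sets tested), while the middle one stood at 0.071 (adjusted p = 0.541). ACACA, the carboxylase that forms malonyl-CoA, had an interval of -0.37 to 0.14. FASN, the synthase, gave 358 and 306 units in the parental line, 399 and 458 in S1a, and 420.2 and 333 in S1b, with an interval of -0.033 to 0.58, and was called higher with median centring (0.46, adjusted p = 0.0114).

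SCD, which places the double bond that turns stearate into oleate, gave 1182 and 1170.4 units in the parental line, 1270.4 and 1349.6 in S1a, and 662 and 604 in S1b. The S1b arrays lay far below the others, and the S1a arrays lay above both parental arrays. SCD fell in S1b against parental with a change of -0.89 ± 0.10 (limma adjusted p = 6.92e-05), while S1a stood at 0.15 ± 0.10 (adjusted p = 0.228). With both isolates averaged the change was -0.37 ± 0.083 (limma adjusted p = 0.00478), and this call ended with median centring (-0.18, adjusted p = 0.156). All 4 SCD probe sets were lower in S1b than in parental, from -0.89 to -2.61 and each with a call. They disagreed on S1a, where only the brightest stood above parental. The others, in order of brightness, stood at -0.24 (limma adjusted p = 0.249 over all probe sets tested), -0.90 (0.00979) and -0.54 (0.504). With the mean of probe sets, SCD stood at -1.80 in S1b and -1.09 with both isolates averaged.

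SCD5, the second human desaturase of this kind, gave 192 and 108 units in the parental line, 192 and 232 in S1a, and 71.3 and 76.2 in S1b. Both S1b arrays lay below all others, and the parental arrays spread widely. SCD5 fell in S1b with a change of -0.93 ± 0.28 (limma adjusted p = 0.0249). This call ended with no filter, with quantile normalization and without the variance trend (adjusted p = 0.0576, 0.05004 and 0.0547), and without parental replicate 1 (value -0.53, 0.151), S1b replicate 1 (0.107) or S1b replicate 2 (0.0802). FADS2, the desaturase that starts the conversion of dietary to long polyunsaturated fatty acids, gave 288 and 196 units in the parental line, 292 and 339 in S1a, and 289 and 217 in S1b. Its S1a arrays lay just above the rest, and the interval was -0.18 to 0.65. ACSL1, which activates fatty acids with coenzyme A, gave 980.0 and 961 units in the parental line, 851 and 717 in S1a, and 946 and 989 in S1b. It fell in S1a with a change of -0.31 ± 0.11 (limma adjusted p = 0.0419), a call that ended under 10 of the 18 alternatives, among them no filter, the replicate block (adjusted p = 0.0593), median centring (value -0.12) and without S1a replicate 2 (value -0.19).

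**Figure D3:**
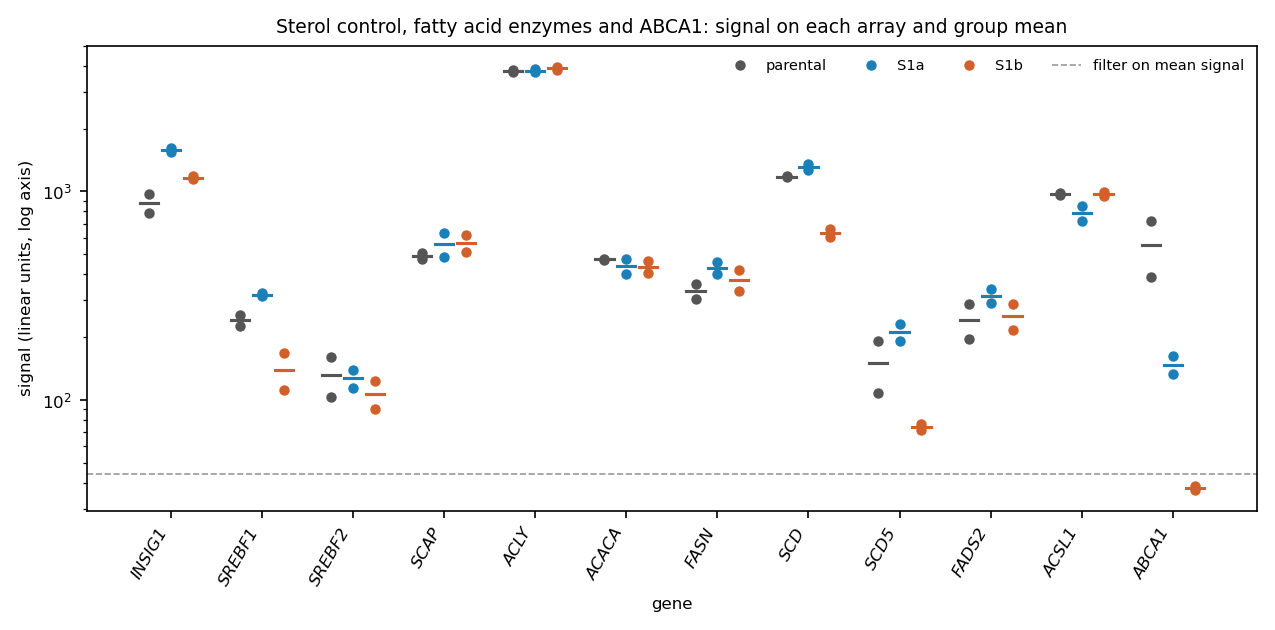
Signal of the 4 sterol control genes, the 7 measured fatty acid enzymes and ABCA1 on a log axis, with a point for each array, a bar at each group mean and a dashed line at the filter of 44 units. The S1b points of SREBF1, SCD and SCD5 lie below all others of the same gene, ABCA1 steps down from parental to S1a to S1b, and the points of ACLY and ACACA overlap.

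ABCA1, the exporter of cellular cholesterol, had the largest fitted log2 change of the 28 genes. Its brightest probe set gave 720.4 and 388 units in the parental line, 133 and 162 in S1a, and 37.0 and 38.4 in S1b. The parental arrays differed from each other, yet both stood above the S1a arrays and these above the S1b arrays. The second probe set gave 511 and 501 units in the parental line, 99.5 and 119 in S1a, and 26.7 and 32.4 in S1b, with close parental arrays and the same order. ABCA1 fell in S1a with a change of -1.82 ± 0.29 (limma adjusted p = 0.00088), or 3.76-fold, from 554 ± 235 to 147 ± 20.4 units (SD, n = 2). In S1b its mean of 37.7 ± 1.01 units lay below the filter, so the fall is at least 12.6-fold against parental (limma adjusted p = 1e-05). The second probe set changed by -2.18 in S1a and -3.93 in S1b (adjusted p = 9.09e-05 and 1.28e-06 over all probe sets tested). The falls against parental kept their call under every alternative run.

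**Figure D4:**
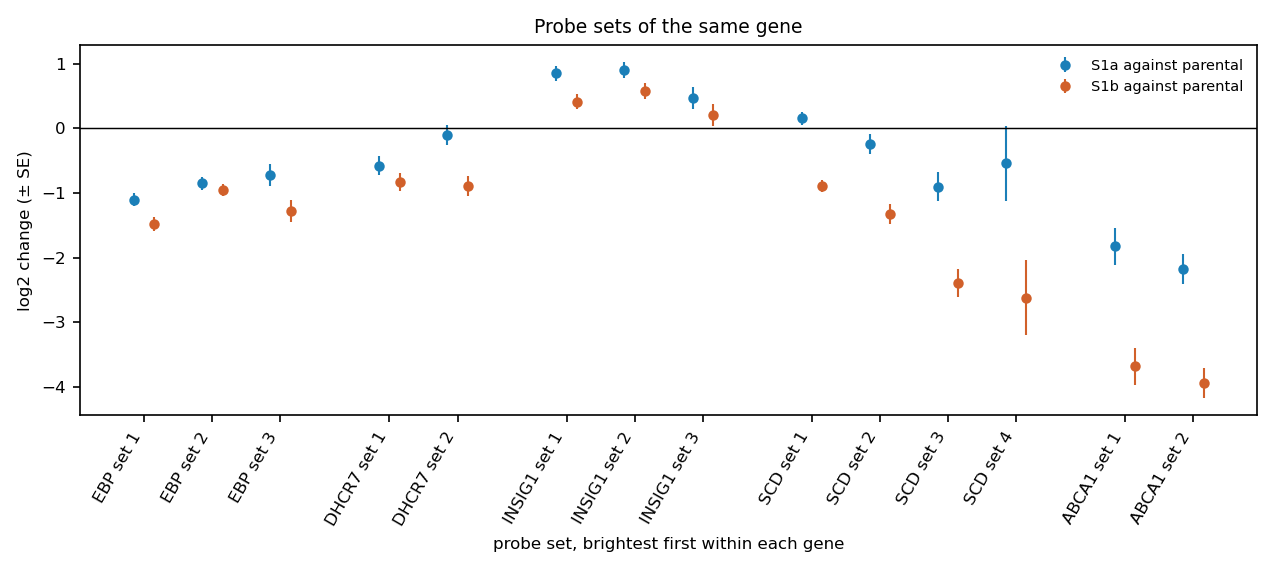
Log2 change (± SE, limma over all probe sets) in S1a and S1b against parental for each probe set above the filter of EBP, DHCR7, INSIG1, SCD and ABCA1, brightest first within a gene. Both ABCA1 probe sets and all 3 of EBP lie below 0 in both isolates, and the SCD probe sets lie lower in S1b than in S1a.

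The isolates themselves were set apart by 4 of the genes. ABCA1 was lower in S1b than in S1a, with a ratio of means of at least 3.35 (95% interval of the log2 change -2.49 to -1.21, limma adjusted p = 0.0132). SCD was lower by 2.07-fold (log2 change -1.05 ± 0.10, adjusted p = 0.000692), SREBF1 by 2.28-fold (-1.20 ± 0.21, 0.0247) and SCD5 by 2.87-fold (-1.47 ± 0.28, 0.0362). For each of the 4 genes both S1b arrays lay below both S1a arrays. The second probe set of ABCA1 gave -1.76 (adjusted p = 0.00604 over all probe sets tested), and SCD probe sets gave -1.05, -1.08, -1.49 and -2.07, the last without a call. The SCD call held without any single array. The SREBF1 call ended when either S1a array or S1b replicate 2 was left out (adjusted p = 0.132 to 0.152), the SCD5 call without any 1 of the 4 isolate arrays (0.14 to 0.251) and with the replicate block (0.0696), and the ABCA1 call without S1a replicate 2, S1b replicate 1 or S1b replicate 2 (0.103 to 0.108). The SREBF1 and SCD5 calls also ended with no filter (0.0597 and 0.0911), and the ABCA1 and SCD5 calls with the mean of probe sets (0.104 and 0.0597). Without the variance trend, which left 4 of 7791 genes called, none of the 4 passed (adjusted p = 0.0618 for SCD). The 24 other genes lay between -0.57 and 0.31, with 95% intervals reaching from -1.04 to 0.76.

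The further genes of sterol handling and fatty acid metabolism that were listed beside the 28 were mostly lower. Of 15 sterol handling genes tested, 1 rose and 10 fell with both isolates averaged (median -0.38), and of 13 fatty acid genes 3 rose and 7 fell (median -0.41). Over all genes 22.7% were called higher and 23.5% lower, with a median of -0.026. These further lists were chosen with earlier results of these data known, so their shares are not those of genes picked blindly. INSIG2, the relative of INSIG1, fell with a change of -1.53 ± 0.14 (limma adjusted p = 1.91e-05), from 562 to 193 units, opposite in sign to INSIG1. NPC2, which passes cholesterol out of lysosomes, fell with -0.96 ± 0.075, and GGPS1, which lengthens farnesyl diphosphate, with -1.08 ± 0.14, a call that ended with shared-probe suffixes dropped (-0.55, adjusted p = 0.286). MBTPS1, the first protease to cut SREBP in the Golgi, rose by 0.77 ± 0.10 (limma adjusted p = 0.00018; 0.43 with the mean of probe sets). Among fatty acid genes, the elongase ELOVL6, which lengthens palmitate to stearate, fell with -1.36 ± 0.089 (limma adjusted p = 2.45e-06), from 1899 to 737 units. ELOVL5, an elongase of polyunsaturated fatty acids, fell with -0.61 ± 0.069 and AGPAT2, an acyltransferase of glycerolipid synthesis, with -1.12 ± 0.091. The fatty acid binding protein FABP5 rose by 0.67 ± 0.072.

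Between S1b and S1a, 1 gene of each of these further lists was called, and both are named after their values were seen. LBR, which like TM7SF2 has sterol reductase activity, was higher in S1b (0.63 ± 0.10, limma adjusted p = 0.0164), with 2598 units in S1a and 4044 in S1b. CPT1A, which admits fatty acids to mitochondria for oxidation, was lower in S1b (-0.82 ± 0.15, limma adjusted p = 0.0323). The LBR call ended when either S1a array or S1b replicate 2 was left out (adjusted p = 0.114 to 0.132), and the CPT1A call without any 1 of the 4 isolate arrays (0.142 to 0.218), with the replicate block (0.0676) with no filter (0.0686) and with the mean of probe sets (value -0.29). Both ended without the variance trend (0.21 and 0.116).

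The 9 called genes lie apart in the genome, on chromosomes 6, 7, 9, 10, 11, 16 and X, and several had neighbours that moved with them. Of the 10 tested genes nearest to MVD on chromosome 16, 5 on each side, 7 were called higher and none lower with both isolates averaged (median log2 change 0.82), where 22.7% of all genes were called higher. Near EBP on the X chromosome 7 of 10 were called lower and 2 higher (median -0.51), and near NSDHL, also on X, 6 lower and 1 higher (-0.49), where 23.5% of all genes were called lower. SC5D on chromosome 11 had 6 lower neighbours and no higher one (-0.58), and ABCA1 on chromosome 9 had 7 lower and 1 higher (-0.43). DHCR7 had 0 higher and 1 lower neighbour (-0.096), INSIG1 2 higher and 1 lower (0.075) and ACAT2 4 higher and 1 lower (0.16). SCD, which fell, had 5 higher and 3 lower (0.31). The part of position in these changes was not tested.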

How the data were processed

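The 6 Affymetrix arrays, 2 a group, hold biotin-labelled total RNA. The values the authors deposited are linear intensities, 1 signal per probe set, and the submitters' processing notes name MAS5 without a version. Each array had a trimmed mean of 500.2 after 2% was cut at each end. Detection calls were not used here, so no gene is called absent.

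The members and lists were chosen with earlier results of these data known. Symbols came from a platform annotation, updated by gene ID through RefSeq (GRCh38.p14); 19064 of 22215 probe sets carried 1 symbol. A gene took its probe set with the highest mean. Signals were analysed as log2(signal + 3.942), the pseudocount being the 10th percentile, so fold changes understate dim genes. Genes with a mean below the 40th percentile (44 units) were left out. Where the dimmer side lay below 44 units, the brighter mean over 44 is a lower bound of the ratio of means. It makes no allowance for the spread of the arrays.

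With limma 3.58.1 under R 4.3.3, 1 model of 3 group means over the 6 arrays was used (variance trend, 3 residual degrees of freedom), Benjamini-Hochberg over 7791 genes, threshold 0.05; it was tested on simulated data. A fit over all named probe sets gave values of single probe sets. All members could be named, and of each further list the 4 genes with the smallest p. Values on each array were planned for members called with both isolates averaged or between S1b and S1a. They are given for some other members too. Alternatives were other pseudocounts and filters, quantile normalization, equal array medians (median centring), the mean of a gene's probe sets, no suffixes for shared probes (_s, _x), no variance trend, array weights, the replicate number as a block, and each array left out. The windows of 10 neighbouring genes were added after the data were seen. The number of arrays limits the precision.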

Additional observations from a re-analysis of the deposited data

Results flagged for a closer look

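In 4 genes the effect against parental differed between the isolates by the test of S1b against S1a (limma, adjusted p below 0.05). The log2 difference was -1.05 for SCD, -1.85 for ABCA1, -1.20 for SREBF1 and -1.47 for SCD5. ABCA1 fell in both isolates and further in S1b. For SREBF1 and the brightest SCD probe set, S1a arrays lay above both parental arrays and S1b arrays below them. The other SCD probe sets stood lower in S1a than in parental (-0.24, -0.90 and -0.54), with both S1a arrays below both parental arrays in each. Groups of 2 arrays allow no check for a sample that stands apart.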

How the results depend on the processing

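Dropping probe sets of shared-probe suffixes left 16 of the 28 genes to test. Of these, 3 were called with both isolates averaged, 4 in S1a and 5 in S1b. Of all genes 43.1%, 36.3% and 39.6% were called in the same comparisons. With both isolates averaged, 1 of 8 sterol enzymes and 0 of 3 fatty acid enzymes were called. ACAT2, MVD, SC5D, DHCR7 and SCD had no other probe set above the filter, so they were left untested rather than losing a call. Between S1b and S1a the count of 4 became 2 with no filter, 2 with the mean of probe sets and 0 without the variance trend. Over all genes the share called there fell too, from 1.89% to 0.527%, 0.791% and 0.0513% with these settings. Leaving out 1 array at a time gave 9 calls in each case with both isolates averaged, 6 to 10 in S1a, 7 to 11 in S1b and 1 to 6 between S1b and S1a. Sterol enzymes then counted 6 and fatty acid enzymes 1 each time, though without parental replicate 2 NSDHL lost its call and IDI1 gained one. Median centring moved the median of all genes, both isolates averaged, from -0.026 to 0.16, which raises each change against parental.

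Of the values of single genes with a call, 682 stayed on their side of the threshold and 70 lost it, and 0 changed sign. Of those without a call 447 stayed, 11 gained a call and 29 changed sign, with the cause not tested. With both isolates averaged, quantile normalization gave FDPS -0.038, TM7SF2 0.020, HSD17B7 0.022, SREBF2 0.019 and ACLY -0.027. Median centring gave LSS 0.15, MSMO1 0.017, HSD17B7 0.16, SREBF2 0.036, ACACA 0.074 and ACSL1 0.032. The mean of probe sets gave HMGCS1 -0.12, SQLE -0.18, SREBF2 0.17 and, between S1b and S1a, SC5D 0.091. Without 1 array the values ran from -0.034 to 0.21 for MVK, from -0.036 to 0.064 for PMVK, from -0.025 to 0.53 for IDI1, from -0.057 to 0.12 for FDPS, from -0.034 to 0.15 for SQLE, from -0.11 to 0.059 for HSD17B7, from -0.47 to 0.16 for SREBF2, from -0.60 to 0.21 for SCD5 and from -0.035 to 0.51 for FADS2, and from -0.12 to 0.0046 for ACAT2 between S1b and S1a.

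The replicate numbers are shared by the groups, but nothing pairs the arrays. Same-numbered arrays deviated from their group means with correlations of -0.0046, -0.067 and -0.058. With the replicate number as a block, 9 genes were called with both isolates averaged, 8 in S1a, 11 in S1b and 3 between S1b and S1a, and over all genes 3350 with both isolates averaged and 64 between S1b and S1a.

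With 2 arrays a group and 1 population per isolate, no difference can be put to a property that other isolates share. Probe sets below 44 units give bounds, and no probe set's level can be set against another's.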
